A study of Mus musculus with 12 samples.

Results

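The integrated stress response genes described here are 10 mouse genes taken by gene symbol as a list of Atf4 and its pathway: Atf4, Atf5, Ddit3, Cebpb, Asns, Chac1, Trib3, Sesn2, Ddit4 and Ppp1r15a. All 10 were found among the 51467 genes measured, and all 10 were among the 14731 genes kept by the filter on low counts. Total and nascent RNA of naive embryonic stem cells, or ESCs, was compared with that of EpiLCs, their epiblast-like derivatives, in 4 groups of 3 libraries each. ESCs were held in the naive state in Knockout DMEM with fetal bovine serum, LIF and the 2i inhibitors (PD0325901 and CHIR99021). EpiLCs were plated 24 h before LIF and 2i were removed, and were collected 56 h after removal. The cells of all 4 groups, ESCs included, received 500 µM 4-thiouridine (4sU), a uridine analogue, for 30 min before extraction. No group without 4sU was part of the design. The extracted RNA was then split: labelled RNA was captured as a measure of nascent transcripts (4sU libraries), and unselected RNA was depleted of ribosomal RNA (total libraries). The study's methods name 1 reporter line of ESCs for this differentiation, so the libraries of a group are repeats within that line.

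In the integrated stress response, eIF2 kinases that sense amino acid shortage, endoplasmic reticulum stress, double-stranded RNA or heme shortage phosphorylate the translation initiation factor eIF2. Bulk translation then slows, while the Atf4 mRNA, whose upstream reading frames hold back its main reading frame in unstressed cells, is translated better. Atf4 protein turns on genes for amino acid synthesis and uptake, further transcription factors and, with Ddit3, the regulator Ppp1r15a that ends the response. Amino acid supply is known to be a limiting input for the fast growth of pluripotent cells.

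Summed gene counts were 3097693 to 5385644 reads in the 4sU libraries and 9300845 to 21975684 in the total libraries. Levels are given as CPM, read counts per library brought to a common total by TMM scaling. A gene was called changed when limma-voom gave a Benjamini-Hochberg adjusted p under 0.05 over all 14731 genes and the log2 change, EpiLC minus ESC, was over 1 in size. All 10 naive markers were called lower in EpiLC total RNA and 6 of 7 primed markers were called higher. The 7 primitive endoderm markers summed to 4.5 to 9.98 CPM in ESC total libraries and 8.52 to 9.46 in EpiLC total libraries, with Gata6, Sox7, Foxa2 and Cubn below the filter. Of the 3 kept, Gata4 was called higher in EpiLC total RNA (1.24), though not by DESeq2. Sox17 was called lower in total (-4.13) and nascent RNA (-1.98), and Pdgfra was not called. Reads were few, at most 61 for Gata4 and 26 for Sox17 in a total library. The 10 fibroblast markers summed to 10.1 to 14.4 CPM in ESC total and 16.1 to 21.2 CPM in EpiLC total libraries, and 6 of them were below the filter. The fibroblast sums were 8.17 to 10.7 CPM in ESC 4sU and 7.75 to 8.98 CPM in EpiLC 4sU libraries. Of the 4 fibroblast markers kept, 2 were called higher in EpiLC total RNA, Col1a2 and Dcn, which had 0 reads in all ESC libraries. Pdgfrb was called lower (-1.97), and Thy1 was not called. Whether such other cells were present, and what part they had in the results, was not tested.

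The 10 genes did not move as a block during the ESC to EpiLC transition. In total RNA, Asns and Chac1 fell, Cebpb rose, and 7 genes were not called. In nascent RNA, Asns, Chac1 and Trib3 fell, Cebpb rose, and 6 genes were not called. Of all genes tested, 11.2% were called lower and 16.3% higher in total RNA, and 13.5% were called lower and 11.9% higher in nascent RNA. The median log2 change of the 10 genes was -0.22 in total and -0.37 in nascent RNA, against 0.02 and -0.09 over all genes tested. In bulk RNA, fewer cells that make a transcript and less transcript per cell cannot be told apart.

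**Figure D1:**
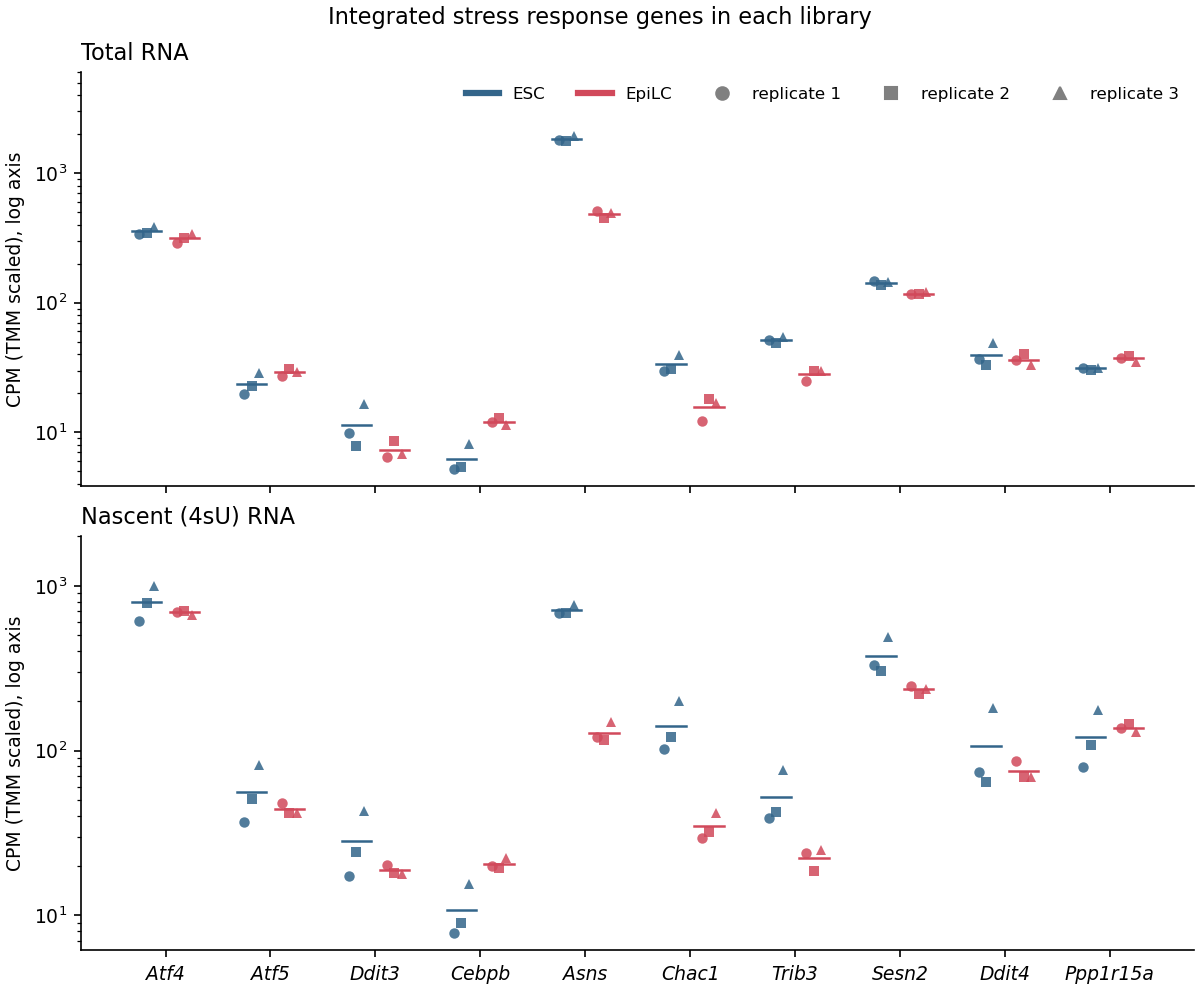
CPM (TMM scaled, log axis) of the 10 integrated stress response genes in each of the 12 libraries, total RNA above and nascent RNA below; points are libraries, with a shape for each replicate number, and short lines are group means (n = 3). Asns lies at 1769 to 1950.2 CPM in ESC total libraries and 447 to 514 in EpiLC total libraries, while the ranges of Atf4 overlap; ESC replicate 3 (triangles) is the highest ESC 4sU library for each gene.

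Atf4, the transcription factor at the centre of the response, was abundant and did not differ detectably between the cell types. Atf4 (chr15:80255184-80257540 in mm10, plus strand) was at 339, 344 and 381 CPM in ESC total replicates 1, 2 and 3 and at 291, 314 and 340.0 CPM in EpiLC total replicates. The nascent values were 609.5, 791 and 1003 CPM in ESC 4sU libraries and 698, 702 and 669 CPM in EpiLC 4sU libraries. The EpiLC total values lay somewhat below the ESC values, with the highest EpiLC library above the lowest ESC library, and in nascent RNA the EpiLC values lay inside the wide ESC range. The log2 change of Atf4 was -0.17 ± 0.13 (SE) in total RNA, with an adjusted p of 0.276 by limma-voom and a 95% interval of -0.45 to 0.11. In nascent RNA it was -0.18 ± 0.13, with an interval of -0.46 to 0.10 and an adjusted p of 0.267. These intervals exclude a change past the fold threshold in either direction.

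Atf5, a relative of Atf4 that is also controlled by upstream reading frames, was measured at lower levels. Atf5 (chr7:44812256-44816658, minus strand) was at 19.7, 22.7 and 28.9 CPM in ESC total and at 27.1, 31.0 and 29.4 CPM in EpiLC total libraries. In 4sU libraries it was at 36.8, 50.9 and 81.2 CPM in ESCs and at 48.1, 42.0 and 41.8 CPM in EpiLCs. Groups overlapped in both assays, and the log2 changes had opposite signs, 0.34 ± 0.20 in total (adjusted p = 0.148, limma-voom) and -0.25 ± 0.22 in nascent RNA (adjusted p = 0.378).

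Ddit3, which encodes the transcription factor CHOP that acts in prolonged stress, was the least precisely measured of the 10 genes. Ddit3 (chr10:127290774-127296288, plus strand) was at 9.84, 7.84 and 16.6 CPM in ESC total and at 6.5, 8.57 and 6.79 CPM in EpiLC total libraries. Nascent Ddit3 was at 17.3, 24.1 and 43.1 CPM in ESC 4sU and at 20.1, 18.1 and 17.9 CPM in EpiLC 4sU libraries. ESC replicate 3 was high in both assays and the groups overlapped. The log2 change was -0.48 ± 0.31 in total RNA, with an interval from -1.15 to 0.18, and -0.43 ± 0.32 in nascent RNA, with an interval from -1.11 to 0.26. A decrease past the fold threshold could therefore not be told from no change for Ddit3 (adjusted p = 0.189 and 0.278, limma-voom).

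Cebpb, a bZIP factor that pairs with Atf4 and other partners, was the 1 gene of the list that rose. Cebpb (chr2:167688915-167690418, plus strand) was at 5.18, 5.36 and 8.1 CPM in ESC total and at 12.1, 12.8 and 11.3 CPM in EpiLC total libraries. Nascent Cebpb was at 7.81, 8.99 and 15.5 CPM in ESC 4sU and at 19.9, 19.4 and 22.1 CPM in EpiLC 4sU libraries. All EpiLC libraries lay above all ESC libraries in both assays, ESC replicate 3 being the nearest. The log2 change was 1.04 ± 0.18 in total RNA (2.06-fold, adjusted p = 0.000178, limma-voom) and 1.02 ± 0.23 in nascent RNA (2.03-fold, adjusted p = 0.00188). Both values sit on the fold threshold. The total value fell under it without ESC total replicate 1 (0.94) or 2 (0.96), and the nascent value without ESC 4sU replicate 1 (0.82) or 2 (0.91) or without EpiLC 4sU replicate 3 (0.98). It was also under the threshold by edgeR in both assays (0.98 total, 0.95 nascent) and by DESeq2 in total RNA (0.95), with adjusted p under 0.05 in each of these fits.

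Asns, asparagine synthetase, showed the largest change of the list. Asns (chr6:7675169-7693254, minus strand) was at 1815, 1769 and 1950.2 CPM in ESC total libraries and at 514, 447 and 493 CPM in EpiLC total libraries. In the 4sU libraries it was at 686, 684 and 762 CPM in ESCs and at 121, 116 and 149 CPM in EpiLCs. Each EpiLC library was far below each ESC library of the same assay, with little spread inside a group. Total Asns fell by 1.93 ± 0.08 on the log2 scale (3.81-fold lower, adjusted p = 1.21e-10, limma-voom) and nascent Asns fell by 2.48 ± 0.10 (5.57-fold lower, adjusted p = 2.52e-10). The call held in all 23 alternative fits of each assay, where the log2 change ran from -1.99 to -1.84 in total and from -2.57 to -2.40 in nascent RNA.

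Chac1, a glutathione-degrading enzyme and a target of Atf4, also fell. Chac1 (chr2:119351229-119354381, plus strand) was at 30.0, 31.0 and 39.2 CPM in ESC total and at 12.3, 18.2 and 16.8 CPM in EpiLC total libraries. Nascent Chac1 was at 102, 120.5 and 199 CPM in ESC 4sU and at 29.6, 32.2 and 42.0 CPM in EpiLC 4sU libraries. No EpiLC library reached the lowest ESC library in either assay. Total Chac1 fell by 1.06 ± 0.24 on the log2 scale (2.08-fold lower, adjusted p = 0.00142, limma-voom), and nascent Chac1 fell by 1.98 ± 0.24 (3.94-fold lower, adjusted p = 1.19e-05). The total call, close to the fold threshold, was lost without ESC total replicate 3 (-0.96) or EpiLC total replicate 1 (-0.90), and the nascent call was kept without each library.

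Trib3, a pseudokinase that binds Atf4 and Ddit3 and dampens their activity, was called in nascent RNA only. Trib3 (chr2:152337422-152344032, minus strand) was at 51.2, 48.9 and 54.4 CPM in ESC total and at 24.9, 29.5 and 30.0 CPM in EpiLC total libraries. Nascent Trib3 was at 39.0, 42.6 and 75.8 CPM in ESC 4sU and at 23.7, 18.5 and 24.8 CPM in EpiLC 4sU libraries. The groups did not overlap in either assay. Nascent Trib3 fell by 1.15 ± 0.23 on the log2 scale (2.22-fold lower, adjusted p = 0.00078, limma-voom). Its log2 change in total RNA was -0.87 ± 0.16 with an adjusted p of 0.00032, short of the fold threshold. Without ESC 4sU replicate 3 the nascent log2 change was -0.92, also short of that threshold. The difference between the total and nascent values was itself not called (0.28 ± 0.28, adjusted p = 0.595).

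Sesn2, a sestrin that restrains mTORC1 when leucine is scarce, was not called in either assay. Sesn2 (chr4:132492032-132510501, minus strand) was at 148, 137 and 144 CPM in ESC total and at 116, 117 and 120.1 CPM in EpiLC total libraries. Nascent Sesn2 was at 329, 305 and 488 CPM in ESC 4sU and at 248, 220.5 and 236 CPM in EpiLC 4sU libraries. The EpiLC libraries were below all ESC libraries in both assays by a small margin. The log2 change was -0.28 ± 0.13 in total RNA (adjusted p = 0.0745, limma-voom) and -0.63 ± 0.13 in nascent RNA (adjusted p = 0.0011), which is under the fold threshold.

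Ddit4, which encodes REDD1, another brake on mTORC1 that also answers to hypoxia and glucocorticoids, showed no detectable difference. Ddit4 (chr10:59949669-59951834, minus strand) was at 36.9, 33.0 and 48.6 CPM in ESC total and at 36.4, 39.9 and 32.8 CPM in EpiLC total libraries. Nascent Ddit4 was at 73.6, 64.4 and 181 CPM in ESC 4sU and at 86.2, 69.0 and 68.6 CPM in EpiLC 4sU libraries. The groups overlapped, and ESC 4sU replicate 3 stood far above the rest. The log2 change was -0.08 ± 0.28 in total (interval -0.67 to 0.51) and -0.31 ± 0.29 in nascent RNA (interval -0.93 to 0.31), with adjusted p of 0.808 and 0.385 by limma-voom. Without ESC 4sU replicate 3 the nascent value changed sign, to 0.10.

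Ppp1r15a (GADD34), which brings protein phosphatase 1 to phosphorylated eIF2, was not called either. Ppp1r15a (chr7:45522917-45526268, minus strand) was at 31.5, 30.5 and 31.4 CPM in ESC total and at 37.5, 38.7 and 35.2 CPM in EpiLC total libraries. Nascent Ppp1r15a was at 79.5, 108 and 177 CPM in ESC 4sU and at 137, 144 and 129 CPM in EpiLC 4sU libraries. All EpiLC total libraries lay above all ESC total libraries, while the nascent ranges overlapped. The log2 change was 0.25 ± 0.20 in total (adjusted p = 0.282, limma-voom) and 0.27 ± 0.19 in nascent RNA (adjusted p = 0.25).

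**Figure D2:**
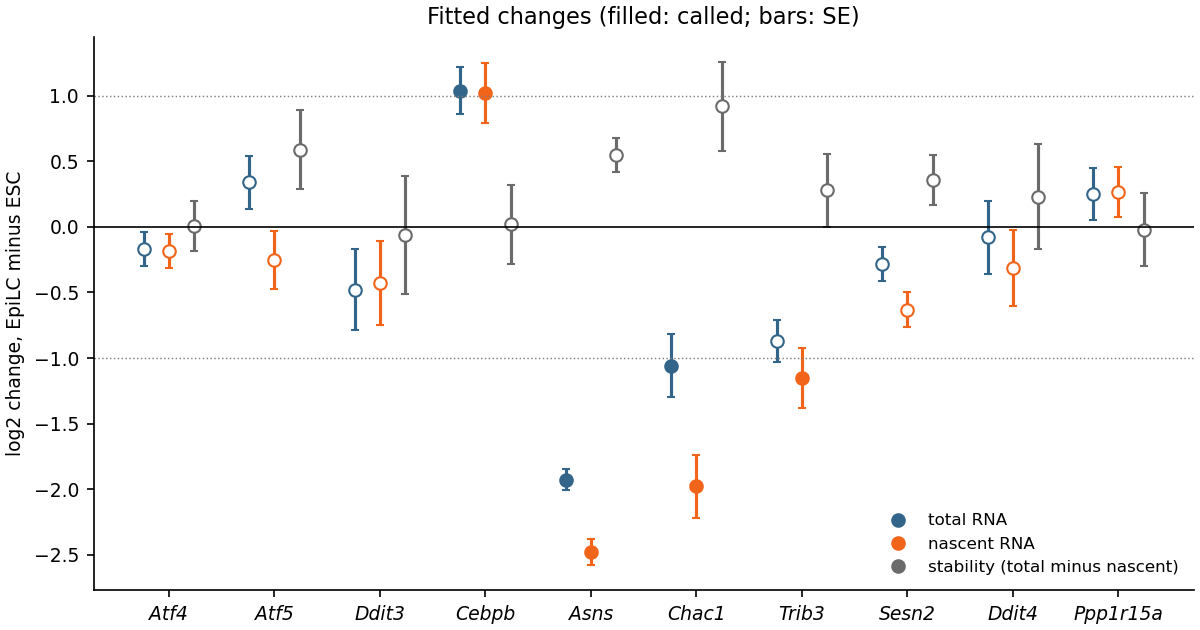
Fitted log2 change, EpiLC minus ESC, of the 10 integrated stress response genes in total RNA, in nascent RNA and in stability (total minus nascent); bars are SE, filled points were called and dotted lines mark the fold threshold. Asns (-1.93 and -2.48), Chac1 (-1.06 and -1.98) and, in nascent RNA, Trib3 (-1.15) lie below the lower line, Cebpb (1.04 and 1.02) lies above the upper line, and no stability value was called.

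Over the list, the values of ESC and EpiLC libraries did not overlap for 6 of 10 genes in total RNA and for 5 of 10 in nascent RNA. The same was true of 68.6% and 60.7% of all genes tested, so these counts are near the background. The calls of the list, 2 of 10 lower in total and 3 of 10 lower in nascent RNA, stand beside 11.2% and 13.5% of all genes.

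Levels were next compared between the 10 genes per kilobase of exon. In ESC total RNA, Asns led with 853 ± 43.5 CPM per kb (SD, n = 3), followed by Atf4 with 206 ± 13.3 and Sesn2 with 41.1 ± 1.58, and these 3 did not overlap each other. Trib3 came next with 25.4 ± 1.37 CPM per kb, above Ddit4 (22.5 ± 4.63) with overlapping libraries. The levels of Chac1, Ddit3, Atf5 and Ppp1r15a followed in that order, each overlapping the gene above it. Cebpb was lowest at 4.13 ± 1.09 CPM per kb, below the next gene in every library. In EpiLC total RNA, Asns at 224 ± 15.9 CPM per kb was only just above Atf4 at 183 ± 14.1, without overlap. In nascent RNA the order of these leaders was reversed: Atf4 led in ESC 4sU libraries (465 ± 114 CPM per kb, against 329 ± 20.6 for Asns) and by a wide margin in EpiLC 4sU libraries (400.2 ± 10.5). Asns in EpiLC 4sU libraries was at 59.5 ± 8.11 CPM per kb, overlapping Sesn2 at 67.6 ± 3.97. Trib3 was the lowest gene of the list there, just below Cebpb at 13.6 ± 0.948 CPM per kb.

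The ratio of total to nascent RNA gives a relative measure of mRNA stability, since an mRNA that decays slowly builds up beyond its rate of synthesis. Values are log2 of total CPM over 4sU CPM in libraries of the same number, called a culture here, and compare genes with each other only, as no absolute scale was measured. Most integrated stress response mRNAs were low on this scale. The list was drawn up as Atf4 pathway genes of which many have short-lived mRNA. Low values were therefore partly built into the list and are not a separate finding about the pathway. The median over the 10 genes was -1.23 in ESCs and -1.02 in EpiLCs, against 0.05 and 0.16 over all genes. By the mean over cultures, 9 of 10 were below the median of all genes in ESCs and 8 of 10 in EpiLCs. Trib3 was just below it in ESCs (0.04) and above it in EpiLCs, and Asns was above it in both. The median percentile of the list was 23.5 in both cell types, with a range over cultures of 19.9 to 29.5 in ESCs and 21.0 to 27.1 in EpiLCs. Among protein-coding genes alone, it was 12.2 in ESCs and 12.6 in EpiLCs.

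Ppp1r15a and Chac1 had the lowest relative stability in ESCs. Ppp1r15a was at -1.34, -1.82 and -2.50 in ESC cultures 1, 2 and 3 and at -1.87, -1.90 and -1.87 in EpiLC cultures. Chac1 was at -1.77, -1.96 and -2.35 in ESCs and at -1.26, -0.82 and -1.32 in EpiLCs. Ppp1r15a stood at percentile 17.3 of all genes in ESCs and 14.5 in EpiLCs, and Chac1 at 16.3 and 22.3.

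Asns was the exception at the other end. Its relative stability was 1.40, 1.37 and 1.36 in the ESC cultures and 2.08, 1.95 and 1.73 in the EpiLC cultures, percentile 84.7 and 94.0 of all genes. Trib3 was near the middle, with means of 0.04 ± 0.46 (SD, n = 3) in ESCs and 0.34 ± 0.30 in EpiLCs. Percentiles of single genes rank the fitted values, by which Trib3 was at 51.1 and 56.2. Atf4 (mean -1.15 ± 0.28 in ESCs and -1.13 ± 0.14 in EpiLCs) and Ddit3 (-1.27 ± 0.41 and -1.37 ± 0.28) lay between percentiles 19.0 and 25.1.

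**Figure D3:**
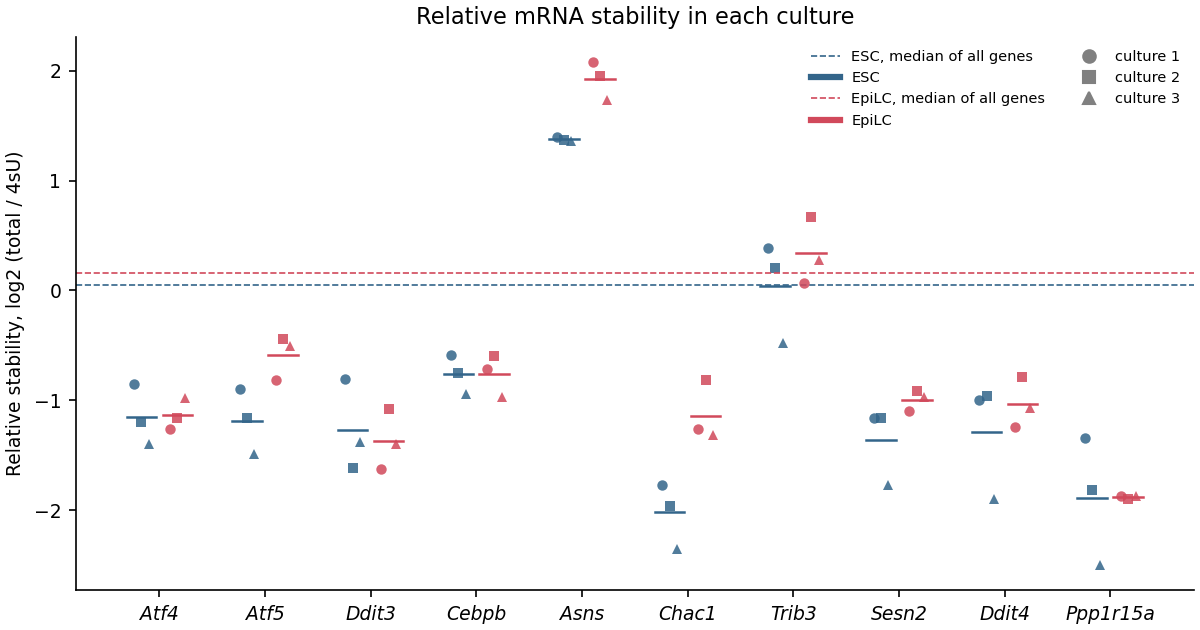
Relative mRNA stability, log2 of total over 4sU CPM, of the 10 integrated stress response genes in each culture; short lines are means over 3 cultures and dashed lines are the medians of all genes (0.05 in ESCs and 0.16 in EpiLCs). Asns lies above 1 in every culture, Trib3 near the dashed lines and the other 8 genes below them.

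The change in stability was tested as the interaction, the total change minus the nascent change. None of the 10 genes was called by limma-voom, and none by edgeR or DESeq2. An unadjusted p under 0.05 was found for 2 of 10 (Asns and Chac1) by each of these tools. Of all 14731 genes, 3379 had such a p by limma-voom, 3394 by edgeR and 3103 by DESeq2, so 2 of 10 is near the background. Of all genes tested, 1.24% were called higher in EpiLC and 0.305% lower. Higher calls were 80.2% of all stability calls with TMM scaling and 66.7% with median-of-ratios scaling. The difference for Asns, 0.55 ± 0.13 with a 95% interval of 0.28 to 0.82, had an adjusted p of 0.0296 by limma-voom and was under the fold threshold. That adjusted p was under 0.05 in 15 of 23 alternative fits and in 6 of the 12 that left out 1 library, with a range of 0.00104 to 0.101 by the tools and settings tried. For Chac1 the difference was 0.92 ± 0.34 (interval 0.18 to 1.65, adjusted p = 0.129). With a replicate block by culture in limma-voom, 3 of 10 genes had an adjusted p under 0.05 and none passed the fold threshold: Asns (0.54, adjusted p = 0.00645), Chac1 (0.90, 0.0108) and Atf5 (0.61, 0.0369). By adjusted p alone, 1731 of all 14731 genes were under 0.05 with that block, against 678 without it. With the fold threshold added, that block called 438 of all genes higher and 90 lower in stability, against 182 and 45 without it. In the fit without a block, the difference for Atf4 was 0.01 ± 0.19, with an interval of -0.38 to 0.41. For Ddit3 the difference in that fit was -0.06 ± 0.45, with an interval of -1.01 to 0.90. The ESC and EpiLC cultures did not overlap for 4 of 10 genes (Atf5, Asns, Chac1 and Sesn2), as was true of 33.3% of all genes with a read in every library. The median over the 10 genes was 0.26, against 0.11 over all genes.

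ESC replicate 3 stood apart for this list, and to a degree over all genes kept. On principal component 3 of all genes kept (2.34% of the variance), ESC 4sU replicate 3 scored -35.7, against 3.28 and 6.21 for replicates 1 and 2. ESC total replicate 3 scored -14.3, against 22.4 and 20.5. In ESC 4sU libraries all 10 genes were highest in replicate 3, as were 37.0% of all genes kept, and in ESC total libraries 8 of 10 were, as were 43.2% of all genes. The ratio of replicate 3 to the mean of replicates 1 and 2 had a median of 1.85 over the 10 genes in ESC 4sU libraries, against 0.986 over all genes. In ESC total libraries the median ratio was 1.2 over the 10 genes, against 0.996. Ddit4 (2.62), Ddit3 (2.08) and Ppp1r15a (1.89) had the highest ratios in nascent RNA, and Asns had the lowest at 1.11. Among EpiLC 4sU libraries, replicate 3 was the highest for 4 of 10 genes. What set this culture apart was not tested.

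**Figure D4:**
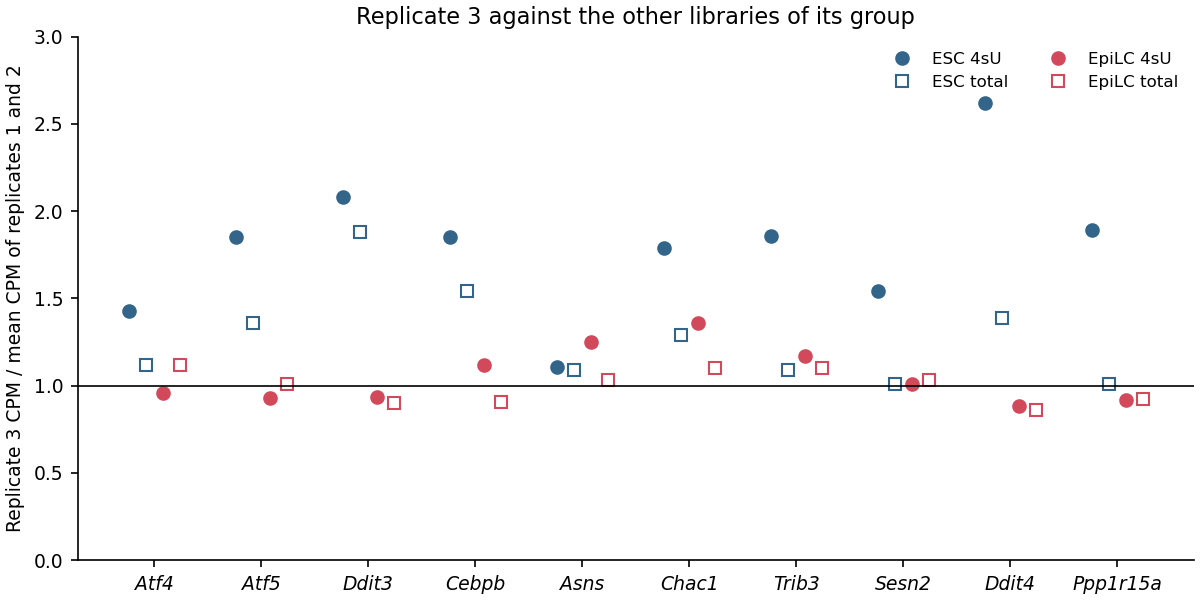
CPM of replicate 3 divided by the mean CPM of replicates 1 and 2 of the same group, for each of the 10 integrated stress response genes in the 4 groups. In ESC 4sU libraries (filled blue) each gene is above 1, from 1.11 for Asns to 2.62 for Ddit4, whereas the EpiLC points (red) lie on both sides of 1.

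Without both libraries of ESC replicate 3, the spread shrank and the calls on Asns, Cebpb and nascent Chac1 were kept. Replicate 3 was the highest ESC 4sU library for all 10 genes, so a smaller spread follows in part from leaving it out. Smaller adjusted p values without it are therefore no separate support. In that fit the log2 change was -1.90 ± 0.06 in total and -2.46 ± 0.08 in nascent RNA for Asns, 1.18 ± 0.13 and 1.24 ± 0.18 for Cebpb, and -1.74 ± 0.14 in nascent RNA for Chac1. Total Chac1 (-0.96 ± 0.13) and nascent Trib3 (-0.92 ± 0.14) were then under the fold threshold. The log2 change of Atf4 was -0.13 ± 0.08 in total and -0.04 ± 0.08 in nascent RNA, and that of Ddit4 was 0.05 ± 0.10 and 0.09 ± 0.11. Some values under the fold threshold had an adjusted p under 0.05 in that fit and not with all libraries. Nascent Ppp1r15a was at 0.53 (adjusted p = 0.000173, limma-voom) and total Ppp1r15a at 0.25 (adjusted p = 0.036). Total Atf5 was at 0.45 (adjusted p = 0.00129, limma-voom) and total Sesn2 at -0.28 (adjusted p = 0.000539). The stability difference of Chac1 was 0.78 (adjusted p = 0.00782, limma-voom). The count of calls lower in total RNA was then 1, and in nascent RNA 2.

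Promoters were searched for TGATGNAA, the core shared by C/EBP-ATF composite elements through which Atf4 is known to act on amino acid response genes. Both strands of the RefSeq windows were searched, from 250 bases before to 50 after each start site (build GRCm38.p6), and all 10 genes had a window. Matches lay in 3 of 10 genes, Asns, Chac1 and Trib3, against 4.51% of the 27025 genes with a window (Wilson 95% interval 4.27 to 4.76%) and 2.64% of those kept by the filter. The 3 matches are shown because these are the same genes that were called lower in nascent RNA. Each is printed with 11 bases on either side, in the direction of the gene, and capitals mark the match.
Asns, chr6:7693214-7693243, minus strand, first base of the match at -23 from the start site: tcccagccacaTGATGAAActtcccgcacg
Chac1, chr2:119351038-119351067, plus strand, match at -193 on the reverse strand: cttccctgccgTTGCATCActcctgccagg
Trib3, chr2:152344028-152344057, minus strand, match at 14 on the reverse strand: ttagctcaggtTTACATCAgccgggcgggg
The median nascent log2 change was -1.98 over these 3 genes and -0.25 over the 7 without a match. Since the 3 with a match are the 3 called lower, these medians restate the calls and test nothing about the match. Among all genes kept, 52 of 267 with a match (19.5%) and 1291 of 9848 without one (13.1%) were called lower in nascent RNA. Over the lists of other Atf4 targets, tRNA synthetases, serine and one-carbon enzymes and amino acid transporters, 4 of 14 genes with a match and 5 of 34 without were called lower, and the medians were close (-0.36 and -0.43). A match describes letters in a window and is not a site of binding.

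Transcript features came from 1 principal transcript per gene in GENCODE M21. The genes of the list were compact, with a median of 3 exons against 9 over 12308 genes kept and a median 3′ UTR of 548 bases against 1044. The 5′ UTR held an ATG in 6 of 10 genes, near the 51.6% of genes kept, and the median count was 1 in both. Ppp1r15a held 7 in a 5′ UTR of 764 bases and Atf4 held 3 in 594 bases. Atf5 and Ddit3 held 2 each, and Asns and Sesn2 held 1 each. The median 5′ UTR was 192 bases in the list and 181 in genes kept. Ppp1r15a, Atf4, Atf5 and Ddit3 are known for translational control by upstream reading frames, which was not tested here. The 7-base seed match of the ESC-enriched microRNA family, AGCACTT, was found in the 3′ UTR of Sesn2 only, against 16.3% of genes kept. The AU-rich heptamer TATTTAT, a core of elements known to shorten mRNA life, was found in 2 of 10 genes, against 28.9% of genes kept. Those genes were Ppp1r15a, with 4 overlapping copies in a 3′ UTR of 71 bases, and Chac1, with 1 copy. They are also the genes with the lowest relative stability in ESCs. In EpiLCs this was not so for Chac1, which at percentile 22.3 was above Ddit3 (19.0) and close to Atf4 (22.0). Ddit3 and Atf4 hold no heptamer, and a link between heptamer and stability was not tested. The sites are shown with the heptamer in capitals and positions in GRCm38.
Ppp1r15a, first copy, chr7:45522957-45522985, minus strand: tagtttcctatTATTTATttatttattta
Chac1, chr2:119353773-119353801, plus strand: acttgaaccttTATTTATtgcaccatgtt
The other 8 genes held no such heptamer. All of them but Asns were also below the median of all genes in ESCs, Trib3 only just.

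The machinery upstream of Atf4 was examined with lists of related genes. Of 8 eIF2 kinases and regulators, none was called in total RNA by limma-voom, edgeR or DESeq2 (6 had an unadjusted p under 0.05). In nascent RNA Impact, an inhibitor of the kinase Gcn2, rose (1.48) and Eif2ak2, the kinase PKR, fell (-1.01). The Eif2ak2 call was lost by DESeq2 (-0.95) and held in 12 of 23 alternative fits. These 2 genes were named after their values were seen. Of 14 subunits of eIF2, of its exchange factor eIF2B and of its phosphatases, 3 fell in total RNA and 12 of 14 values were below 0. They were Eif2s2, the beta subunit of eIF2 (603 ± 103 CPM in ESCs and 218 ± 8.68 in EpiLCs, log2 change -1.45 ± 0.11), Eif2b5 (-1.33 ± 0.07) and Eif2b4 (-1.23 ± 0.10). In nascent RNA only Eif2s2 was called (-1.43 ± 0.13).

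Other targets of Atf4 did not share 1 direction in total RNA. Of 19 measured, 3 rose and 4 fell, whereas in nascent RNA 6 fell and none was called higher by limma-voom, edgeR or DESeq2 (3 of those above 0 had an unadjusted p under 0.05). The stress-induced cofactor Nupr1 fell from 47.7 ± 10.5 to 4.15 ± 1.45 CPM in total RNA (log2 change -3.50 ± 0.33). Cth, the cystathionine lyase that makes cysteine, fell from 417 ± 67.4 to 144 ± 9.38 CPM (-1.51 ± 0.11), and the repressor Jdp2 fell by 1.39 ± 0.16 on the log2 scale. The cytokine Gdf15, named after its values were seen, fell by 3.01. The genes that rose in total RNA were Atf3 (1.52 ± 0.36), which encodes a stress-induced bZIP factor, the secreted glycoprotein gene Stc2 (1.22 ± 0.18) and Vldlr (1.02 ± 0.16), a lipoprotein receptor. The Vldlr call was lost by edgeR (0.93) and DESeq2 (0.90). Atf3 was at 13.1 ± 6.98 CPM in ESC total and 32.0 ± 1.54 CPM in EpiLC total libraries, with a wide spread in ESC 4sU libraries (50.0 ± 41.3 CPM).

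Few genes of amino acid metabolism passed the fold threshold in total RNA. Of 20 tRNA synthetases, 18 had values below 0, 17 of them with an unadjusted p under 0.05 by limma-voom, and 1, Qars, was called lower (-1.02 ± 0.09), with a median of -0.36 against 0.02 over all genes. Of 13 serine and one-carbon enzymes, Bcat1, a branched-chain aminotransferase, fell from 1217 ± 76.2 to 342 ± 21.6 CPM (-1.83 ± 0.07). In nascent RNA 4 of 13 were called lower. Of 13 amino acid transporters, the cationic transporter Slc7a1 (-1.12 ± 0.08) and the glutamine transporter Slc1a5 (-1.04 ± 0.11) fell in total RNA. The cationic transporter Slc7a3 (1.21 ± 0.14) and the neutral transporter Slc43a1 (1.02 ± 0.12) rose, as did Slc7a11, the cystine transporter (2.26, named after its values were seen).

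Family relatives of the 10 genes leaned the other way, with 5 of 11 called higher in total RNA and a median of 0.65. None was called lower by limma-voom, edgeR or DESeq2, and 2 of those below 0 had an unadjusted p under 0.05. Sesn3, a second sestrin, rose from 40.0 ± 5.38 to 104 ± 1.8 CPM (1.39 ± 0.10), while Sesn1 had a value of -0.51 in total and fell by 1.18 in nascent RNA. Trib2 (2.44), Cebpa (1.72) and Cebpd (1.66), named after their values were seen, rose too and were at low levels. Of 16 genes of the other arms of the unfolded protein response, only Sdf2l1, an endoplasmic reticulum chaperone component, was called (-1.31 ± 0.12), and the median was 0.01. Of 14 p53 targets, Pmaip1 (2.15 ± 0.11) and Perp (1.87 ± 0.13) rose, and Tigar (166 ± 4.93 CPM in ESCs and 41.5 ± 2.75 in EpiLCs), Ei24 (-1.03 ± 0.07) and Cdkn1a (-1.02 ± 0.20) fell. None of 16 mTORC1 pathway genes was called in either assay by limma-voom or DESeq2, while 12 in total and 9 in nascent RNA had an unadjusted p under 0.05 and edgeR called 1 lower in nascent RNA.

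**Figure D5:**
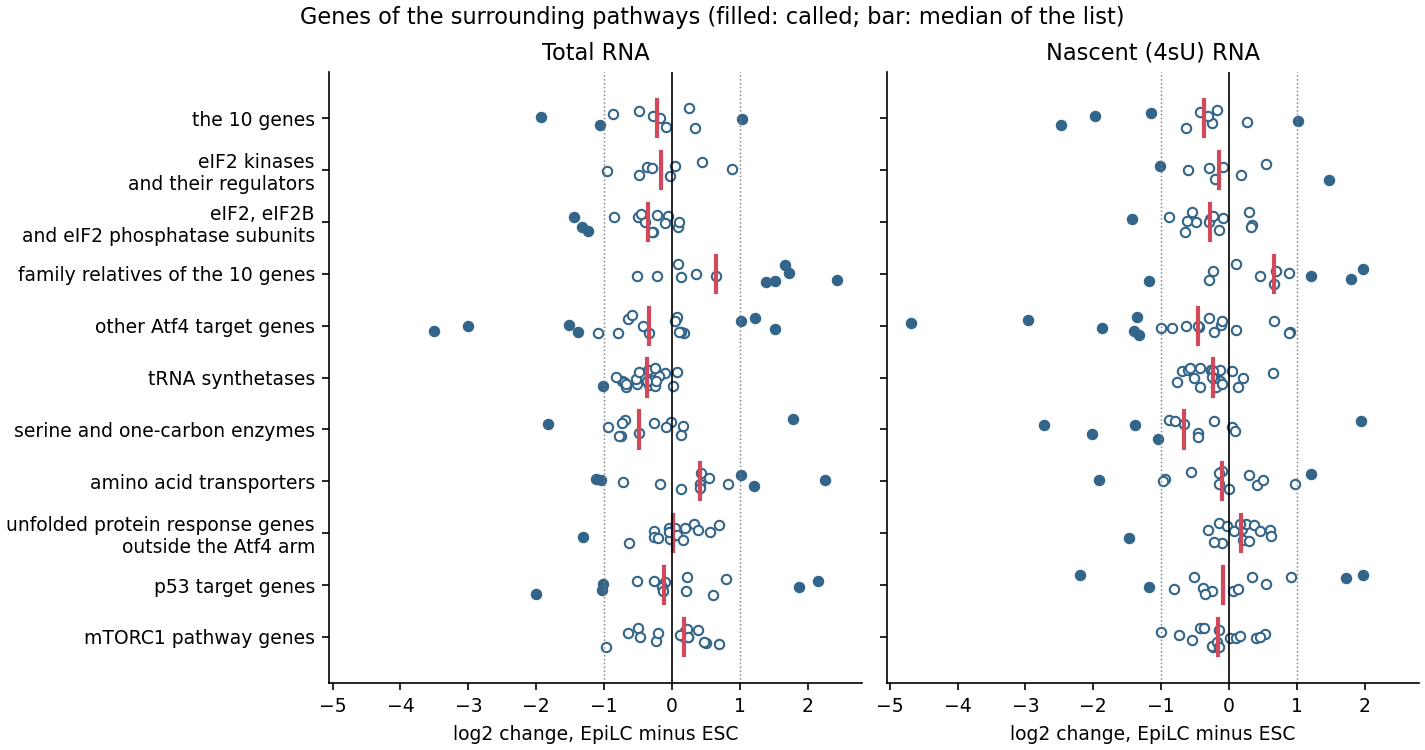
Fitted log2 change, EpiLC minus ESC, of each gene kept from the list of 10 and from 10 related lists, in total RNA (left) and nascent RNA (right); filled points were called, red bars are list medians and dotted lines mark the fold threshold. Called genes of the other Atf4 target list lie on both sides in total RNA (3 higher and 4 lower) and on the lower side alone in nascent RNA (6).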

How the data were processed

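Raw read counts per gene were deposited by the authors for 12 libraries. Per the labels and methods, the authors trimmed single-end reads with cutadapt 1.14, aligned them to mm10 with STAR 2.5.3a, kept uniquely aligned reads and counted exons by strand with featureCounts 1.5.3 on GENCODE M14. Unique alignment lowers counts of genes with near-identical copies. Of 51559 entries, 92 were spike-ins with 0 reads, so no absolute scale exists. Exon lengths (other values) were also taken from the deposited table. Of the gene IDs, 51274 had a symbol in GENCODE M21.

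The filter kept genes that reached 3 CPM in 3 or more libraries. The filter and the use of limma with an interaction of assay and cell type follow the study's methods, which do not name voom or TMM. Here limma-voom was fitted to all 12 libraries (R 4.3.3, limma 3.58.1, with TMM factors from edgeR 4.0.16) with the contrasts total, nascent and their difference (stability). The script was tested on simulated data. Alternatives were edgeR's quasi-likelihood test, DESeq2 1.42.0, other scalings, filters and weights, replicate blocks and each library left out in turn. Per the labels, extracts were split between the assays, but no label says that equal numbers mark 1 extract or that numbers mark separate cultures, so p-values measure the spread between these libraries. Intervals of shares cover counting error only. The members and lists were chosen with earlier results of these data known. Genes of other lists were named when among the 3 largest called rises or falls in total RNA, at a mean of at least 10 CPM and without overlap between cell types, or when called in stability, and 1 gene that met this rule is not reported here. Dcn, called in stability, had 0 reads in ESCs and is given no fold. Promoter sequences are RefSeq's (GRCm38.p6), other sequences GENCODE M21's. Python 3.11.15, pandas 2.3.3 and matplotlib 3.10.9 were used.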

Additional observations from a re-analysis of the deposited data

Results flagged for a closer look

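For 7 of the named genes the total and nascent changes differed by the interaction test (limma-voom, adjusted p under 0.05), with every group of libraries holding reads. The difference, the total log2 change minus the nascent one, was 0.55 for Asns, so that its nascent RNA fell by more than its total RNA. It was 0.80 for Slc7a1, in the same sense. For Vldlr (1.14) and Slc43a1 (1.01) total RNA rose without a call in nascent RNA (-0.12 and 0.00). For the primed marker Sfrp2 (1.21) total RNA rose by more than nascent RNA. For Qars (-0.60) and Eif2b5 (-0.45) total RNA fell and the nascent value was smaller in size and under the fold threshold. Of the 7, Vldlr, Slc43a1 and Sfrp2 also passed the fold threshold, and by DESeq2 the values of Vldlr (0.98) and Slc43a1 (0.95) did not. Of 23 alternative fits, the stability call held in 12 for Vldlr, 9 for Slc43a1 and 13 for Sfrp2, and of the 12 that left out 1 library in 3, 4 and 3. The adjusted p stayed under 0.05 in all 23 for Slc7a1, in 15 for Asns, in 13 for Qars and in 12 for Eif2b5.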

How the results depend on the processing

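Counting error is larger where reads are few, as for Cebpb (38 to 91 reads) and Ddit3 (60 to 158 reads) in 4sU libraries. With 3 libraries a group, values near the fold threshold crossed it easily, and the cause of each crossing was not tested. The count of 3 genes lower in nascent RNA stayed within 1.5 times in every alternative.

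Cebpb, the only gene higher, lost its call in total RNA by edgeR, by DESeq2, without the expression filter and with a replicate block by number (count 0 in each), and in nascent RNA by edgeR and with the replicate block (count 0). The count of 2 lower in total RNA was 1 with library totals, with sample quality weights and without ESC replicate 3 in both assays, because Chac1 (-0.97, -0.91 and -0.96) fell under the fold threshold. With single libraries left out, these counts ran from 0 to 1 (higher, total), 1 to 2 (lower, total), 0 to 1 (higher, nascent), 2 to 3 (lower, nascent) and 0 (stability). By adjusted p alone, 1 gene (Asns) was higher in stability, and 3 (Asns, Chac1 and Atf5) with the replicate block by culture. Of all 14731 genes, 678 and 1731 passed by adjusted p alone in these fits, in either direction. The median percentile in relative stability was 35.2 (ESC) and 34.0 (EpiLC) without the filter and 12.2 and 12.6 among protein-coding genes.

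Values close to 0 changed sign, none of them called. Stability values that did were Atf4 by DESeq2 (-0.04), median-of-ratios scaling (-0.07), TMM within each assay (-0.04), no filter (-0.09), a filter of 10 CPM (-0.04) and without ESC replicate 3 (-0.09). For Cebpb they were -0.06, -0.07, -0.04, -0.08, -0.04 and -0.06 in the same order, and 0.00 with the replicate block by number. Ddit3 was at 0.01 with library totals and 0.11 with quality weights, and Ppp1r15a at 0.08 by edgeR, 0.05 with library totals and 0.00 with a replicate block by culture. Ddit4 without ESC replicate 3 was at 0.05 in total, 0.09 in nascent RNA and -0.04 in stability, and in total RNA at 0.01 with library totals and 0.05 with quality weights. With single libraries left out, stability ran from -0.14 to 0.21 (Atf4), -0.33 to 0.25 (Ddit3), -0.18 to 0.53 (Ddit4), -0.20 to 0.22 (Cebpb) and -0.29 to 0.26 (Ppp1r15a). Ddit4 then ran from -0.21 to 0.06 in total and from -0.62 to 0.10 in nascent RNA, and Ppp1r15a from -0.01 to 0.54 in nascent RNA.

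Equal replicate numbers were not taken to pair the libraries of all groups, since the labels do not tie numbers to extracts: deviations of same-numbered libraries correlated at 0.213 to 0.462 between ESC assays, at 0.023 to 0.092 between EpiLC assays and at -0.128 to -0.006 between cell types. The replicate block by number changed no call on the 10 genes but those of Cebpb (0.98 in total, 0.99 in nascent RNA). For other listed genes near the fold threshold, total calls were lost without ESC total replicate 1 or 2 (Qars), ESC 3 or EpiLC 2 (Cdkn1a), EpiLC 2 (Ei24), ESC 3 or EpiLC 1 (Slc1a5), ESC 1 or 2 or EpiLC 2 (Vldlr) and ESC 2 or 3 or EpiLC 2 or 3 (Slc43a1). The nascent call on Eif2ak2 was lost without EpiLC 4sU replicate 1 or any EpiLC total library. Over all alternatives these values came as near to 0 as -0.94 (Qars), -0.89 (Cdkn1a), -0.94 (Ei24), -0.96 (Slc1a5), 0.83 (Vldlr), 0.94 (Slc43a1) and -0.94 (Eif2ak2).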
